A study of Mus musculus with 4 samples.

Results

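The comparison set mouse embryonic fibroblasts (MEFs) that lack Stat3 against wild-type MEFs while both were exposed to interferon alpha (IFNa). A gene entered if its array feature had a detection score above 0.99, which corresponds to a detection p under 0.01, on at least 1 of the 2 IFNa arrays. That rule kept 18274 of 46632 features, of which 13850 carried a single gene symbol and 4424 carried none. With the brightest feature standing for each gene, 10023 of the 17708 genes on the array were compared, and 8445 of them were detected on both arrays. The 4 samples of the study were cultures of a MEF cell line of strain C57BL/6, WT or STAT3KO (knockout of Stat3), each either untreated or given IFNa at 1000 U/ml for 2 h. Each sample was hybridised to 1 Illumina bead array, so every value below is 1 measurement and no difference was tested. Precision is limited by the number of arrays. The sources used here do not say how the cells were immortalised or passaged, whether either line is a clone, or whether the lines came from littermates. Genotype therefore cannot be told apart from line.

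Type I interferons bind the IFNAR receptor, and the kinases JAK1 and TYK2 then phosphorylate STAT proteins. STAT2 and IRF9 are subunits of ISGF3, the factor that switches on antiviral genes through interferon-stimulated response elements in their promoters. STAT3 is activated by the same receptor and, more strongly, by gp130 cytokines such as interleukin 6, oncostatin M and leukaemia inhibitory factor. It is known for driving acute-phase and wound-response genes and has been reported to restrain part of the interferon response. Fibroblasts respond to IFNa readily, and they are also the main makers of extracellular matrix.

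Of the 10023 genes, 1030 (10.3%) were at least 2-fold higher in STAT3KO IFNa than in WT IFNa, and 1078 (10.8%) were at least 2-fold lower. These 2 shares are given as background beside the gene list counts below. They suit a list only if its genes were detected on both arrays about as often as all genes. Among the 8445 genes detected on both, 763 were higher and 644 lower. Of 729 genes detected in STAT3KO IFNa alone 267 were higher and 0 lower. Of 849 detected in WT IFNa alone 434 were lower and 0 higher. No background was matched to lists with many such genes. All gene lists were drawn up with earlier results of these data known, so no list count is independent evidence. At least 4-fold apart were 279 higher and 407 lower genes, and at least 32-fold apart were 18 higher and 59 lower. The lower genes thus held most of the extreme differences, and the median over all genes was 0.07 (log2). A gene is called higher or lower below where the difference reached 2-fold, and every difference is STAT3KO minus WT on the log2 scale. A level is a log2 intensity, and levels of different genes are not compared. A gene undetected on its dim array has only a bound on its fold, marked by the words "at least", and such a bound can lie under 2 although the measured difference reached 2-fold. Levels, folds and the word undetected refer to the brightest feature of a gene, and another feature of that gene can differ. Folds and bounds hold for the main processing only, and other processing can give values below a bound (closing section). Of 749 further detected features of the called genes, 90.3% had the same sign and 51.3% were past 2-fold the same way.

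The nearest thing to a repeat was the pair of untreated arrays, which share no sample with the IFNa pair. Without IFNa 1279 of 10214 genes (12.5%) were higher in STAT3KO and 1013 (9.92%) were lower. The lists shared 842 higher genes, or 81.7% of the IFNa list and 65.8% of the untreated list, and 780 lower genes, or 72.4% and 77.0%. Of the 686 genes at least 4-fold apart with IFNa, 668 were at least 2-fold apart the same way without it. Most of what separated the IFNa arrays was thus also measured between the untreated arrays. For 5458 genes the mean log2 level over the 4 arrays was at least 8. Among them the difference with IFNa and the difference without it were a median of 0.19 apart. They were 0.61 apart at the 95th percentile, and 1.04% of these genes were more than 2-fold apart. Among the 4565 dimmer genes those values were 0.45, 1.44 and 19.3%, so a difference of a dim gene is far less certain. These values include any true effect of IFNa on the difference. Below, a gene is called bright if its mean over the 2 IFNa arrays was at least 8 and both detected it.

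**Figure D1:**
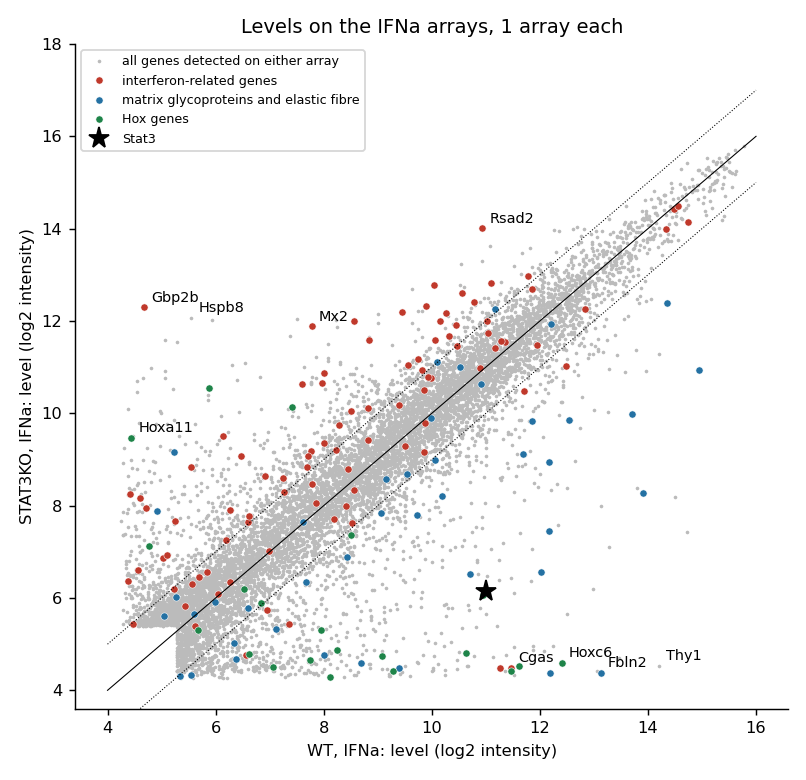
Log2 level of each of the 10023 genes with IFNa in WT (horizontal) and STAT3KO (vertical), 1 array each. The solid line marks equal levels and the dotted lines 2-fold. Stat3 (star), Thy1, Fbln2 and Hoxc6 lie far below the lines, and Gbp2b, Mx2, Rsad2 and Hspb8 lie above them.

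Stat3 itself was at 11.01 in WT IFNa and 6.16 in STAT3KO IFNa, a difference of -4.85 or 28.9-fold, and at 10.75 and 6.56 without IFNa. Its other detected feature gave -3.88. The signal in STAT3KO was low but above the detection limit. The position of the deletion relative to these features is unknown here. Stat5a and Stat5b, the STAT genes beside Stat3, were not detected on either IFNa array. Among other genes near Stat3, Tubg2, a gamma-tubulin gene, was at 7.95 in WT and 9.74 in STAT3KO with IFNa (difference 1.79). Cavin1, which encodes a coat protein of caveolae, was at 12.31 and 11.59 (difference -0.72), and Dhx58, an RNA sensor, at 7.25 and 8.61 (difference 1.35). Tubg2 and Dhx58 had the largest positive differences among the neighbours examined. Ramp2 was about 2-fold lower, at 7.63 in WT and 6.63 in STAT3KO with IFNa. The remaining detected neighbours were within 2-fold, from -0.14 for Plekhh3 to 0.87 for Nkiras2.

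Interferon-related genes were the group that stood highest in STAT3KO with IFNa. Of 95 detected genes on 4 interferon lists (antiviral effectors, sensing and signalling, inducible GTPases, antigen presentation), 49 were at least 2-fold higher in STAT3KO and 7 lower, against a background of 10.3% and 10.8%. Their median difference was 1.03 with IFNa, against 0.07 over all genes. Without IFNa it was 0.35 over the 80 genes then detected, of which 26 were higher and 10 lower. Counting differences of any size, 74 of the 95 genes were higher in STAT3KO with IFNa. The 4 lists were drawn up with earlier results of these data known, so the contrast with the background is not independent evidence.

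The inducible GTPases, which attack the vacuoles of intracellular pathogens, were higher in STAT3KO for 7 of the 14 genes on the array, and the other 7 were not detected on either IFNa array. The 4 detected on both arrays had a median difference of 2.59, and the 7 detected on either had 3.23, but 3 of those (Gbp2b, Gbp7 and Tgtp1) entered only through the STAT3KO array on which they were high. Over all 14, without the detection filter, the median was 0.96. Gbp2b, a guanylate-binding protein gene, was at 4.77 and 4.68 in WT without and with IFNa, below the detection limit both times. In STAT3KO it was at 8.85 without and 12.30 with IFNa, so it was at least 131-fold higher with IFNa. It had the largest positive difference among the 10023 genes. Gbp3 was at 4.90 and 8.56 in WT and in STAT3KO at 8.70 untreated, with a 10.9-fold difference with IFNa. Irgm2, an immunity-related GTPase, was at 4.26 and 9.45 in WT and at 6.89 and 12.19 in STAT3KO, 6.72-fold apart with IFNa. For Gbp3 and Irgm2 the level that WT reached with IFNa lay near or above the level STAT3KO had without it. Igtp was 5.36-fold and Irgm1 3.29-fold higher with IFNa. Gbp7 and Tgtp1 were detected on the STAT3KO IFNa array alone and were higher by factors of at least 7.42 and 6.36. Features for such closely related genes can pick up each other's RNA, so the split among family members is uncertain.

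Antiviral effectors were higher in 18 of 37 and lower in 3. Rsad2, which encodes the broadly antiviral enzyme viperin, was at 4.77 and 10.94 in WT and at 6.42 and 14.01 in STAT3KO, 8.43-fold apart with IFNa. Its neighbour Cmpk2, a mitochondrial nucleotide kinase, was at 10.04 in WT and 12.78 in STAT3KO with IFNa (6.67-fold). Mx2, a dynamin-like antiviral GTPase, was at 7.78 in WT and 11.88 in STAT3KO with IFNa and undetected on both untreated arrays (17.2-fold with IFNa). These genes were high on both IFNa arrays, with STAT3KO above WT. Mx1, by contrast, was detected on the STAT3KO IFNa array alone, at 6.36 (at least 2.13-fold higher). Trim30a (10.3-fold), Oas1g, an oligoadenylate synthetase gene (9.75-fold), and Isg20, an exonuclease gene (6.67-fold), were also higher, though the detected features of Oas1g spanned 1.10 to 3.29. Isg20 was at 8.80 and 8.84 in WT and at 10.91 and 11.58 in STAT3KO, so its difference was present without IFNa.

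The exceptions went the other way. Bst2, the membrane protein tetherin that holds virions at the cell surface, was at 11.70 in WT IFNa and 10.47 in STAT3KO IFNa (2.33-fold lower). Slfn2 was at 7.35 and 5.43 (3.79-fold lower), and Slfn8 was detected with IFNa in WT alone (at least 2.27-fold lower). Ifitm3, which blocks viral entry, was at 14.48 and 14.43, a difference of -0.05, and Helz2, a helicase that acts as a nuclear coactivator, had a difference of 0.09. Effectors therefore ranged from -1.92 for Slfn2 to 4.11 for Mx2.

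Among 28 genes of sensing and interferon signalling, 17 were higher and 2 lower, and the 2 lower ones had the largest differences of the list. Cgas, the cytosolic DNA sensor, was at 10.82 and 11.47 in WT and undetected in STAT3KO, at least 67.4-fold lower with IFNa, although a second detected feature differed by only -0.91. Trim25, a ubiquitin ligase of the RIG-I pathway, was at 7.99 and 11.27 in WT and undetected in STAT3KO, at least 58.8-fold lower with IFNa on its single detected feature. Sting1, the adaptor that acts below cGAS, was at 6.27 in WT and 7.90 in STAT3KO with IFNa (3.10-fold higher). The sensor and its adaptor thus differed in opposite directions.

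Of the 7 interferon regulatory factors detected, 5 were higher, Irf3 only just (2.00-fold), and Irf2 (1.14-fold) and Irf9 were within 2-fold. Irf8, a factor of blood cell lineages, was undetected in WT, while STAT3KO had 7.66 untreated and 8.26 with IFNa (at least 7.91-fold higher with IFNa). Irf5 was at 7.60 in WT IFNa and 10.65 in STAT3KO IFNa (8.27-fold), and Irf1 at 10.15 and 11.99 (3.58-fold). Irf7, the amplifier of interferon production, was at 5.93 and 5.90 in untreated WT and STAT3KO and at 7.76 and 9.19 with IFNa. Its 2.69-fold difference was therefore seen with IFNa and not without it. For the ISGF3 subunits the gaps were smaller: Irf9 was at 9.92 and 10.79 with IFNa (1.83-fold), and Stat2 at 8.82 and 10.11 (2.45-fold). The Toll-like receptor genes Tlr2 (7.28-fold) and Tlr4 (6.10-fold) were higher, with differences of 2.84 and 3.29 already without IFNa.

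Of 23 detected antigen presentation genes 7 were higher and 2 lower, and the median difference was 0.07, as over all genes, 0.41 with the detected features of each gene averaged and 0.26 with chromosome medians subtracted. The higher ones included Cd274, the gene of the T cell inhibitor PD-L1, at 7.97 in WT and 10.66 in STAT3KO with IFNa (6.45-fold). Psmb10, an immunoproteasome subunit gene, was at 10.56 and 12.61 (4.13-fold), while a further subunit gene, Psmb8, was at 8.55 and 8.35. B2m, the light chain of class I molecules, was at 14.56 and 14.50. The class I heavy chain gene H2-D1 (-0.56) and the peptide transporter gene Tap2 (-1.20) were below WT, as was the non-classical class I gene H2-T22 (-1.46). Against these, the class I gene H2-M3 and the immunoproteasome subunit gene Psmb9 were at least 2-fold higher with IFNa, and Psmb9 also without it. Most class I genes lie on chromosome 17, whose bright genes had a median difference of -0.34 (described below), and the part of the chromosome in these values was not tested.

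Of the 49 interferon-related genes that were higher with IFNa, 24 were also at least 2-fold higher without it, among them Gbp2b, Gbp3, Irf1, Irf5, Irf8, Rsad2 and Stat2. A further 14 were within 2-fold on the untreated arrays, including Irf7, Cmpk2, Cd274, Adar and Trex1, and 10 were detected on neither untreated array, including Mx1, Mx2, Ifit3, Gbp7 and Tgtp1. The remaining gene, Ifit2, was lower without IFNa. It encodes an RNA-binding antiviral protein and was at 9.73 in WT and 8.65 in STAT3KO untreated, but at 10.31 and 11.67 with IFNa. Among genes detected on all 4 arrays it was the single gene past 2-fold in opposite directions with and without IFNa (1.36 and -1.07).

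**Figure D2:**
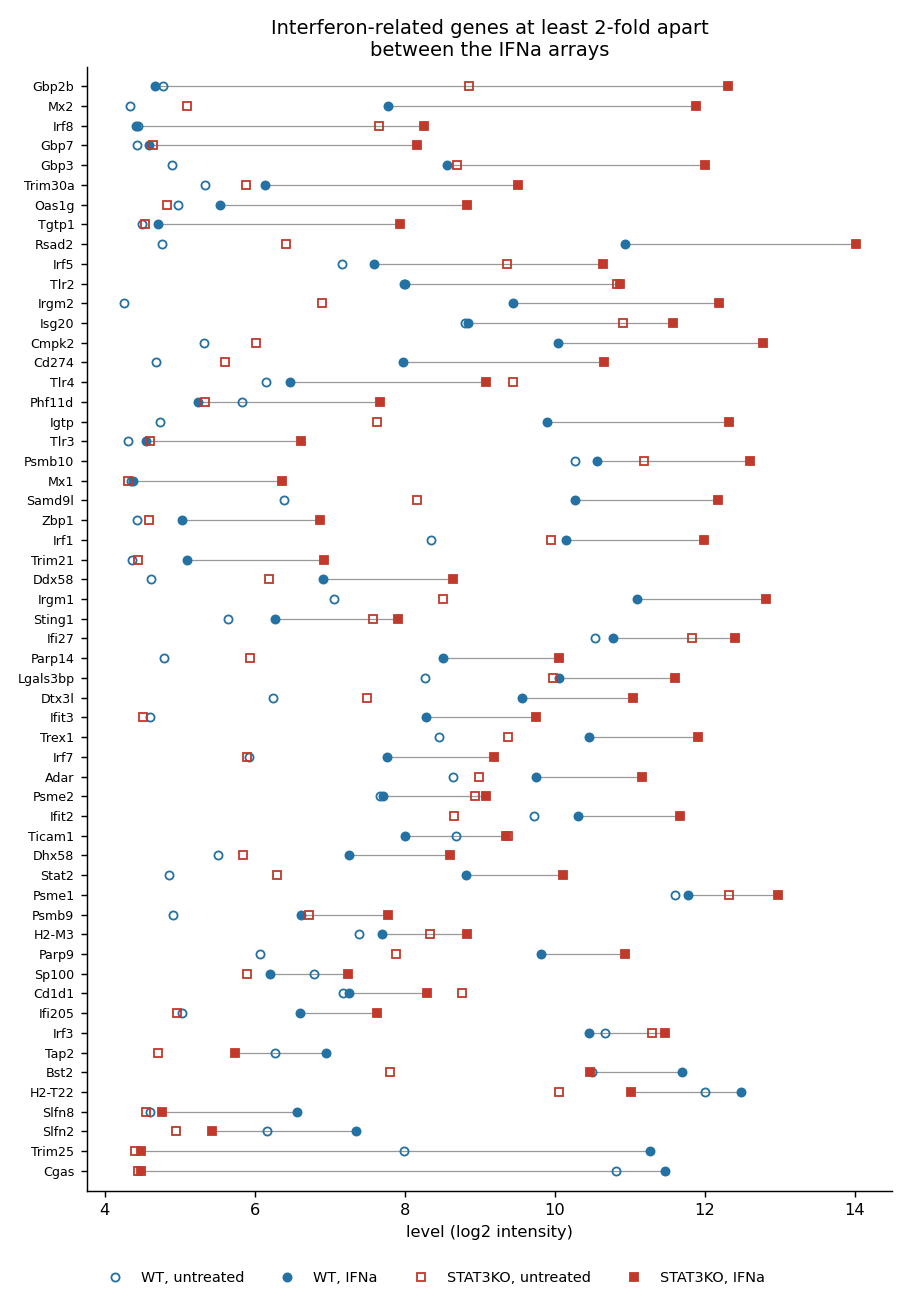
Log2 levels on all 4 arrays (horizontal) of the interferon-related genes at least 2-fold apart between the IFNa arrays, ordered by that difference. Circles are WT, squares STAT3KO, open symbols untreated and filled symbols IFNa, and the line joins the IFNa arrays. For 49 genes the filled square lies right of the filled circle, and for 7 it lies left, with Cgas and Trim25 farthest.

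Promoter sequences of the higher interferon genes are shown because the ISGF3 element is the known link between IFNa and these genes. The letters GAAANNGAA, the core of that element, were searched on both strands in windows of 300 bases (250 before and 50 after each annotated start, RefSeq, GRCm38.p6). They occurred in 19 of the 39 genes with a window among the higher interferon genes (48.7%) and in 16 of the 42 other detected interferon genes (38.1%). Among all 27025 genes with a window the share was 9.76%, and among the 841 with a window of the genes at least 2-fold higher it was 13.1%. The 200 bases before the start are printed 5′ to 3′ for the 5 interferon genes with the largest difference that hold a match there, with matches on either strand in capitals. A match is a description of the letters and not a measured binding site.
Gbp2b (chr3:142594647-142594846, plus strand): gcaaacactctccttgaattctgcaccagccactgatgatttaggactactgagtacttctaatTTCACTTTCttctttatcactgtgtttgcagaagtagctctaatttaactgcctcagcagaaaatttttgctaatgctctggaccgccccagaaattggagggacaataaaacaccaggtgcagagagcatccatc
Gbp7 (chr3:142530136-142530335, plus strand): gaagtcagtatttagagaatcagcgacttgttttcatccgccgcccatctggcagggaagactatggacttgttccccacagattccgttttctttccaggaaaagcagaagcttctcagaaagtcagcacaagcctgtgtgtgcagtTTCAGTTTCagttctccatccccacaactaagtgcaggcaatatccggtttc
Gbp3 (chr3:142559844-142560043, plus strand): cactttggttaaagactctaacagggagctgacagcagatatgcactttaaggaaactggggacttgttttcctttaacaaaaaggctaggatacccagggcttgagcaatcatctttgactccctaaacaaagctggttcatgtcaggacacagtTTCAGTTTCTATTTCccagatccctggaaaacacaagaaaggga
Trim30a (chr7:104465194-104465393, minus strand): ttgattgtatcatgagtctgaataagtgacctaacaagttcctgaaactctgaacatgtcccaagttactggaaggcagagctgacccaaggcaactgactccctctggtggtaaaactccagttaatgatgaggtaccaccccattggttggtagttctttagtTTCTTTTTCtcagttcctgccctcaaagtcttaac
Oas1g (chr5:120887614-120887813, minus strand): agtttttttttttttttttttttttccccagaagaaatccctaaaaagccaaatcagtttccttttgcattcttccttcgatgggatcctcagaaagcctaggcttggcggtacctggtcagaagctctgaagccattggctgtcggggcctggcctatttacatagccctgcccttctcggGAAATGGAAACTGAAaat
In Gbp2b the match begins 136 bases before the start, in Gbp7 52 bases before and in Gbp3 44 bases before. Gbp3 and Oas1g each hold 2 overlapping matches. These 3 neighbours on chromosome 3 had differences of 7.63, 3.57 and 3.45.

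Of 16 detected receptor and kinase genes of the pathway, 2 were higher and 5 lower, Stat3 included, with a median difference of -0.30 (background 10.3% higher and 10.8% lower). Ifnar2, a subunit of the IFNa receptor, was at 7.91 in WT IFNa and 6.81 in STAT3KO IFNa (2.15-fold lower). Tyk2, detected in STAT3KO alone, was at least 1.71-fold higher. Jak1 (0.12), Il6st (-0.23), which encodes gp130, and Ifngr1 (-0.45) were within 2-fold. Osmr, the receptor subunit for oncostatin M, was at 10.71 and 11.37 in WT and undetected in STAT3KO, at least 63.0-fold lower with IFNa. The receptor genes Ghr (-2.47) and Il4ra (-1.74) were lower as well.

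Among 17 negative regulators 3 were higher and 3 lower. Socs3, the feedback inhibitor of gp130 signalling, was at 11.27 and 11.83 in WT and at 9.28 and 9.18 in STAT3KO (6.24-fold lower with IFNa). Socs1, the feedback inhibitor of interferon signalling, was at 8.15 and 8.65 in WT and at 8.18 and 9.93 in STAT3KO, 2.43-fold higher with IFNa. The best known SOCS genes of the 2 branches thus differed in opposite directions. Ptpn6, which encodes the phosphatase SHP-1 and is known mainly from blood cells, was undetected in WT and at 9.85 and 10.06 in STAT3KO, at least 27.6-fold higher with IFNa. Its list-mates Socs5 (-1.81), Cish (-1.21) and Pias3 (1.83; other features down to 0.03) made up the other calls. Socs3 holds the letters TTCNNNGAA, a STAT-type half-site pair that reads alike on both strands, 154 bases before its start, and the same window is printed for it.
Socs3 (chr11:117969367-117969566, minus strand): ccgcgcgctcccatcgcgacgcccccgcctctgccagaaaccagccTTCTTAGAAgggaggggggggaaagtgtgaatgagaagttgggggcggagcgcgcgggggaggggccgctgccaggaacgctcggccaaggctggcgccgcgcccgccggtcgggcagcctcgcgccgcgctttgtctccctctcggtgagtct
Those letters occurred in 9.55% of all genes with a window and in 4 of the 29 STAT3 targets with one (13.8%). Among the 15 of those that were lower they occurred in only 1 (6.67%), which was Socs3 itself. In the interferon lists they occurred in 18 of 81 genes (22.2%).

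Genes commonly listed as STAT3 targets were lower in 16 of 34 and higher in 3, with a median of -0.88 (background 10.8% lower). The list was drawn up with earlier results of these arrays known, so its direction is not independent evidence, and its 16 lower genes include Stat3 itself, Socs3 and Osmr. Saa3, an acute-phase serum amyloid gene, was at 14.72 on both WT arrays and at 8.08 and 7.43 in STAT3KO, 156-fold lower with IFNa. Hp, which encodes the haemoglobin scavenger haptoglobin, was at 12.45 and 12.24 in WT and undetected in STAT3KO on its brightest feature, at least 116-fold lower with IFNa. Its second feature was detected on both IFNa arrays, at 7.18 and 5.41, and differed by -1.77. Ptgs2, the inducible cyclooxygenase, was at 11.02 and 6.48 with IFNa (23.3-fold lower). These genes were low in STAT3KO regardless of IFNa. Il6 was at 8.35 and 9.47 in WT and undetected and at 6.84 in STAT3KO, 6.17-fold lower with IFNa. Vegfa (-2.91), Cebpb (-1.88), Timp1 (-1.57) and Bcl3 (-1.54) were lower too. Several textbook targets were within 2-fold of WT: Junb (-0.23), Myc (0.09), Birc5 (0.12), Ccnd1 (0.16) and Mcl1 (0.24). Lbp, an acute-phase protein gene (at least 2.29-fold), Il11 (3.77-fold) and Icam1 (at least 1.73-fold) were the higher ones.

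Chemokines and cytokines were lower in 20 of 45 and higher in 9. Among the 27 detected on both arrays 10 were lower and 5 higher. The median of the 45 was -0.72, and over all 60 on the array, without the detection filter, it was -0.18. Cxcl5, a neutrophil attractant, was at 10.64 in WT IFNa and undetected in STAT3KO IFNa (at least 38.1-fold lower), and Il33, an alarmin, at 10.56 and undetected (at least 36.0-fold lower). Cxcl12, a stromal chemokine, was at 10.84 and 6.78 (16.7-fold lower), although its second feature differed by only -0.93. Against these, Cxcl1 was at 11.68 and 13.46 (3.45-fold higher), Ccl20 at 6.14 and 8.44 (4.92-fold) and Il15, which supports natural killer cells, at 6.18 and 8.58 (5.30-fold). Cxcl10, a classic interferon-induced chemokine, was at 12.18 and 11.46 with IFNa, a difference of -0.72. It did not share the direction of the antiviral effectors. NF-kB pathway genes were called 4 higher and 7 lower of 28, with Ptx3 (-5.26) and Tnfaip3 (-2.10) lowest.

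Fibroblast identity and matrix genes were the largest block below WT. Of 18 detected fibroblast markers 10 were lower and 0 higher. Thy1, the surface glycoprotein used to sort fibroblasts, was at 13.96 and 14.20 in WT and undetected in STAT3KO, at least 449-fold lower with IFNa and the largest difference of the comparison. Pdgfra (-4.33; second feature -0.01), Pdgfrb (-3.26), Twist2 (-4.12), Col1a1 (-3.85) and Dcn (-5.11; other features up to -1.13) were lower. Other markers were nearly equal on the 2 IFNa arrays: Vim, the mesenchymal intermediate filament, at 15.12 and 15.26, S100a4 at 13.75 and 13.81, Pdpn at 13.33 and 13.18 and Twist1 at 10.33 and 10.14. The STAT3KO line thus matched the WT line in some mesenchymal markers and was lower in others.

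No other cell type in the lists took their place as a whole. Of 17 haematopoietic markers on the array, Cd14, Spi1 and Laptm5 were detected and Laptm5 was higher (at least 2.40-fold). Ptprc, Itgam, Adgre1 and Cd3e were not detected on either IFNa array. Of 26 epithelial markers 10 were detected, 2 higher and 2 lower, and Epcam, Cdh1, Krt8 and Krt18 were not detected. Of 16 endothelial markers 8 were detected, 1 higher and 1 lower, and Pecam1 and Tek were not detected. In bulk RNA a smaller share of some cells and less RNA per cell cannot be told apart.

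By matrix class, 15 of 31 collagen genes and collagen-modifying enzymes, 27 of 43 glycoproteins and elastic fibre genes, 11 of 21 proteoglycans and 16 of 32 proteases and inhibitors were lower, and 3, 4, 0 and 1 were higher. Fbln2, which encodes the matrix linker fibulin-2, was at 13.13 in WT IFNa and undetected in STAT3KO IFNa (at least 213-fold lower), and Thbs2, a thrombospondin gene, was at least 111-fold lower. Bgn, the proteoglycan biglycan, was at 12.98 and 6.19 (111-fold lower), and Timp3, a matrix-bound inhibitor of metalloproteinases, at 13.28 and 7.10 (72.8-fold lower; second feature -4.16). Lox, Ltbp2, Sparc and Ccn2 differed by -5.65, -5.45 (second feature -1.44), -4.72 and -3.99. Of the 8 higher matrix genes, 3 encode basement membrane proteins. They were Lama5 (at least 14.8-fold), Lamb3 (at least 6.14-fold), and Col18a1 at 12.16 in STAT3KO with IFNa (8.94-fold). Col7a1, an anchoring fibril collagen, was at 8.85 and 11.66 (7.01-fold). Mgp (2.04-fold), Ltbp3 (2.14-fold), P4ha3 (2.03-fold) and the protease gene Adamts4 (2.82-fold) were the remaining higher ones. Adhesion receptors were split, 6 higher and 8 lower of 27, with Itga11, a collagen receptor gene, at -6.01 and Itga3, a laminin receptor gene, at 2.23.

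**Figure D3:**
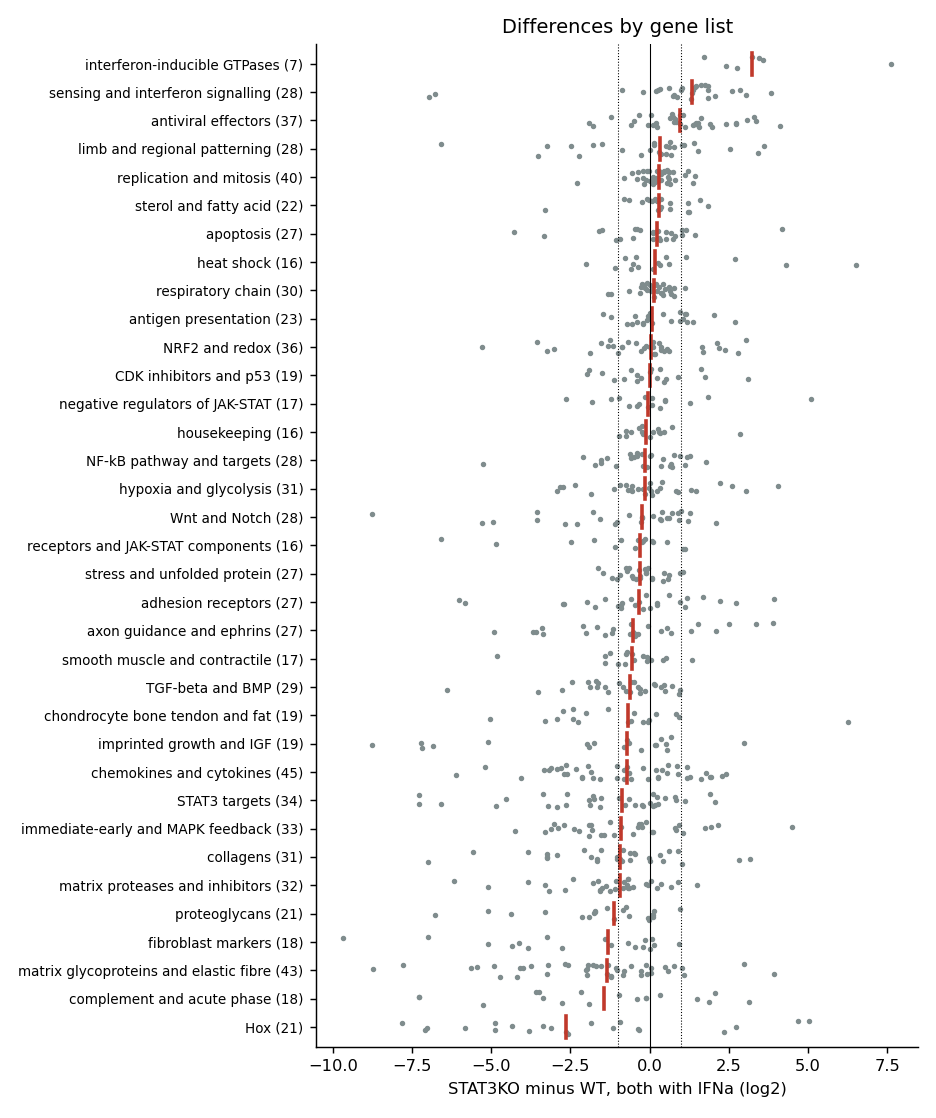
STAT3KO minus WT with IFNa (log2, horizontal) for the detected members of each list of at least 15 and of the inducible GTPases, with the number of members in brackets. Each point is a gene, the red bar is the median and the dotted lines mark 2-fold. Medians run from -2.64 for Hox genes (-0.64 for the 6 detected on both arrays) to 3.23 for the 7 detected GTPases (2.59 for the 4 detected on both arrays). Points of most lists lie on both sides of 0.

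Hox genes, which record position along the body axis, differed by cluster. Of 9 Hoxa, 10 Hoxb, 9 Hoxc and 9 Hoxd genes on the array, 4, 8, 6 and 3 were detected. All 4 detected Hoxa genes were higher in STAT3KO (median 3.71). Lower were 6 of 8 Hoxb, 5 of 6 Hoxc and 3 of 3 Hoxd genes, with 0 higher in those 3 clusters. Hoxa11 was undetected in WT and at 9.79 and 9.47 in STAT3KO (at least 18.3-fold higher with IFNa), and Hoxa7 was at 5.87 in WT and 10.56 in STAT3KO with IFNa (25.7-fold). With IFNa, Hoxc8 stood at 11.61 in WT and was undetected in STAT3KO (at least 74.7-fold lower). Hoxc9 stood at 11.46 in WT and was likewise undetected (at least 67.2-fold lower). Hoxc6 was at 12.40 and undetected (at least 129-fold lower), but its second detected feature differed by 0.89. No Hoxc or Hoxd gene was detected in STAT3KO with IFNa on the features used, and 2 of the 4 Hoxa genes were detected in WT. The detected Hoxc and Hoxd genes thus entered only through the WT array, which largely set their direction. All 8 detected Hoxb genes were detected in WT and 4 of them in STAT3KO. Among the 6 Hox genes detected on both arrays 2 were higher and 2 lower, with a median of -0.64. The 4 clusters lie on different chromosomes, and the Hoxa cluster is on chromosome 6.

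**Figure D4:**
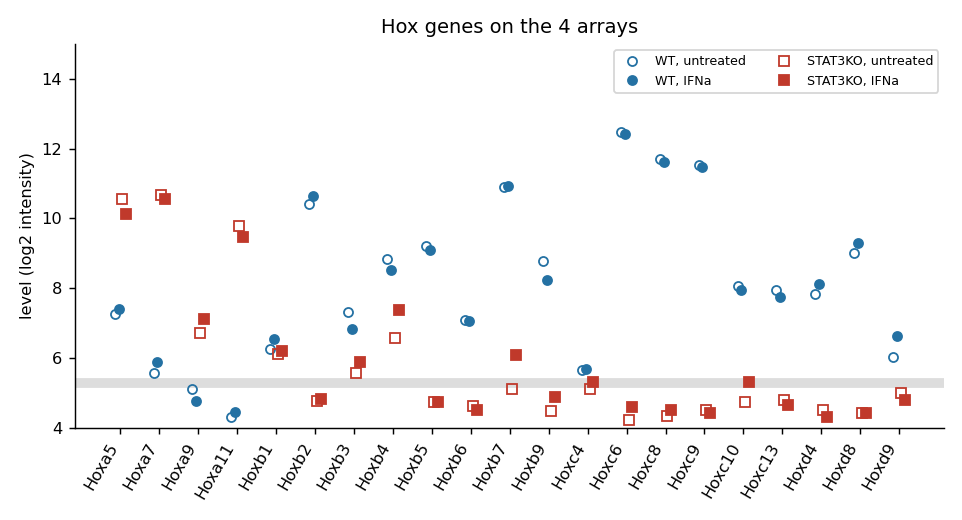
Log2 level (vertical) of the 21 detected Hox genes on the 4 arrays. Circles are WT, squares STAT3KO, open symbols untreated and filled symbols IFNa, and the grey band spans the lowest detected level of the 4 arrays. STAT3KO lies above WT for the 4 Hoxa genes and in or under the grey band for most Hoxb, Hoxc and Hoxd genes.

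Other developmental genes were split as well. Among 28 regional patterning factors 7 were higher and 7 lower. En1, which specifies ventral limb and midbrain territory, was at 11.53 in WT IFNa and undetected in STAT3KO IFNa (at least 70.4-fold lower; second feature -4.44), whereas Gata2 was at 8.09 and 11.51 (10.7-fold higher) and Pax8 was detected in STAT3KO alone (at least 7.63-fold higher). Scx, the tendon transcription factor scleraxis, was at 5.29 and 11.54 (76.3-fold higher), and Foxc2, a mesenchymal factor, at 11.47 and 6.44 (32.8-fold lower). The WT IFNa level of Scx lay just above the lowest detected level of that array, 5.27, so its fold is uncertain. Of 29 TGF-beta and BMP genes 11 were lower and 0 higher, with the BMP antagonist Grem1 at least 53.7-fold lower. Of 28 Wnt and Notch genes 11 were lower and 3 higher, with Dlk1, an imprinted Notch-pathway ligand, at least 270-fold lower on its brightest feature and -4.25 (log2) on a second one detected on both arrays. Wnt5a was at 10.03 in WT IFNa and undetected in STAT3KO IFNa, with other features up to -1.08. Igf2, an imprinted growth factor, was at 12.49 and 5.65 (115-fold lower), and Igfbp5 was at least 103-fold lower. In contrast, the placental growth restrictor Phlda2 was at least 4.67-fold higher. Of 27 guidance genes 11 were lower and 6 higher, with Nrp1, a semaphorin receptor gene, at 11.97 and 8.40 (11.9-fold lower) and Efna1 at 7.85 and 11.22 (10.4-fold higher).

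Immediate-early and MAPK feedback genes were lower in 16 of 33 and higher in 5. Jun was at 9.87 in WT IFNa and 6.85 in STAT3KO IFNa (8.16-fold lower), Fosl2 at 10.83 and 7.53 (9.84-fold lower; second feature -0.54) and Dusp1, a MAPK phosphatase gene, at 12.58 and 9.87 (6.58-fold lower). The ETS factors Etv1 (4.47-fold; second feature 0.60), Etv4 (1.74 on the log2 scale) and Etv5 (3.82-fold), which FGF signalling induces, were higher. Dusp2, a phosphatase gene known from lymphocytes, was at least 15.6-fold higher.

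Few replication, respiratory chain and housekeeping genes were past 2-fold. Of 40 replication and mitosis genes 4 were higher and 1 lower, and their median of 0.30 became -0.02 with arrays scaled to the 75th percentile, with Cenpe at 11.05 and 12.49. Of 30 respiratory chain genes 1 was higher and 2 lower, and of 16 housekeeping genes 1 was higher, Ywhaz, and 0 lower, while Gapdh was at 15.78 on both IFNa arrays. Cdkn2a, the senescence locus, was at 12.14 and 12.37. Within the stress lists single genes stood out. The small heat shock genes Hspb8 (at 5.55 and 12.07, 91.9-fold higher), Hspb2 (at least 16.2-fold) and Cryab (6.46-fold) were higher, and Hspb1 was lower (3.98-fold). In necroptosis, Ripk3, the kinase, was at 8.86 in WT IFNa and undetected in STAT3KO IFNa (at least 11.1-fold lower), and its substrate gene Mlkl was at 5.31 and 9.50 (18.2-fold higher). The WT IFNa level of Mlkl was near the lowest detected level of that array, 5.27, so its fold is uncertain. The caspase gene Casp4 was at 10.60 and 7.26 (10.1-fold lower). Of 36 redox genes 7 were higher, including the chromosome 3 glutathione transferase gene Gstm1 (4.41-fold), and 9 lower, including Mgst1 (at least 18.5-fold).

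The 12 genes with the largest positive difference among those detected on both arrays included 2 adaptors of blood cell receptors. Blnk, the B cell adaptor, was at 5.92 in WT IFNa and 12.02 in STAT3KO IFNa (68.2-fold higher; second feature 3.24), and Lat2, an adaptor of mast cells and B cells, at 6.29 and 11.05 (26.9-fold). Cyth4, an ARF exchange factor gene, was at least 49.9-fold higher on its brightest feature, which was undetected in WT IFNa, while a second feature was detected on both arrays and differed by 0.49. Hspb8, Scx, Hoxa7 and Mlkl, given above, also belong to the 12, as do Fxyd5 (23.4-fold), Etl4 (23.4-fold), Rgs17 (23.3-fold; second feature 2.96), Gcnt1 (21.6-fold; second feature 1.25), Dysf, the membrane repair gene dysferlin (20.2-fold; second feature 2.35), and Ctnnal1 (19.7-fold). The 10 brightest genes whose brightest feature was detected in STAT3KO alone were Gbp2b, Cyth4, Tgm2, tissue transglutaminase (at least 51.9-fold), Arap3 (at least 79.1-fold), 2610318N02Rik, Mgmt, a DNA repair gene, Tusc1, Raet1d, Csn3 and Trim54. The bounds of the last 6 ran from 28.2-fold for Trim54 to 45.0-fold for 2610318N02Rik. Other detected features of 2610318N02Rik differed by only 0.40 and 0.88. These differences were also present without IFNa, at 6.79 for Blnk, 4.04 for Lat2 and 6.69 for Tgm2. At the other end the 12 lowest included Epb41l3 (-6.31; other features up to -1.34), Lrrc15 (-5.80), Ankrd1 (-5.47), Rgs16 (-5.41), Fhl1 (-5.41) and Dram1 (-5.33). The STAT3KO IFNa level of Lrrc15 was 5.40, beside a lowest detected level of 5.39 on that array. Slpi, a protease inhibitor gene, and Crabp1, a retinoic acid binder gene, were detected in WT alone and at least 203-fold and at least 89.1-fold lower.

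Differences were not spread evenly over the chromosomes. Of 520 detected genes on chromosome 6, 164 (31.5%) were at least 2-fold higher in STAT3KO IFNa, against 866 of the 9503 other genes (9.11%). Among bright genes detected on both arrays, 253 of 284 on chromosome 6 (89.1%) had a positive difference, with a median of 0.80 and quartiles of 0.38 and 1.17. Over the 5169 bright genes elsewhere the median was 0.01 and 50.6% were positive. The shift ran along the whole chromosome: in 5 consecutive groups of 56 or 57 bright genes in gene order the medians were 0.63, 0.87, 0.87, 0.85 and 0.78. The shift was thus shared by most bright genes of the chromosome.

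Chromosome 3 had a median of 0.47, with 75.6% positive. There the outer groups of bright genes stood at 0.06 and 0.13 and the inner groups at 0.66, 0.71 and 0.56. Chromosomes 7 (0.34) and 1 (0.32) were also above 0, and chromosomes 17 (-0.34), 8 (-0.26) and X (-0.25) below it. The untreated arrays gave 0.85 for chromosome 6, 0.49 for chromosome 3 and -0.43 for chromosome 17, which are separate measurements of the same lines. Whether the lines differ in chromosome copy number was not tested, since the arrays measured RNA. Xist, expressed from an inactive X chromosome, was at 8.69 in WT IFNa and 10.04 in STAT3KO IFNa. The Y-linked gene Uty was at 5.49 and 4.89, near the detection limit. Hoxa5, Hoxa7, Hoxa9, Hoxa11, Irf5, Samd9l, Gata2, Ptpn6 and Dysf lie on chromosome 6, with differences of 1.91 to 5.09, beyond its upper quartile, while Fbln2, Col1a2 and Mgst1 on the same chromosome were lower. With each chromosome's median subtracted, an alternative chosen after seeing the data, the median of the interferon lists was 0.99 and that of the Hox genes -2.79.

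**Figure D5:**
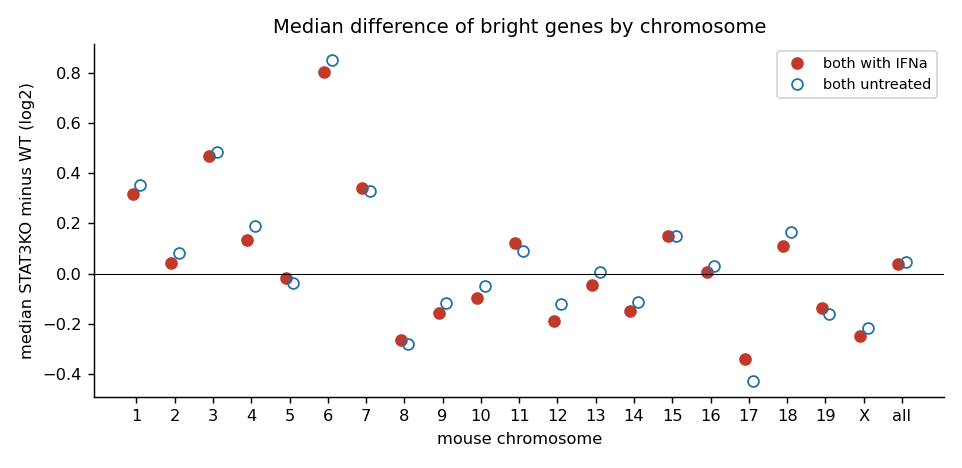
Median difference, STAT3KO minus WT (log2, vertical), of bright genes by mouse chromosome (horizontal), with the last position showing all genes. Filled points are the IFNa arrays and open points the untreated arrays. Chromosome 6 stands highest at 0.80 and 0.85, chromosome 17 lowest at -0.34 and -0.43.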

How the data were processed

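RNA of 4 samples was measured on 4 Illumina bead arrays. BeadStudio 3.2.3 was used, per the submitters' processing notes. What was deposited are linear intensities and, per feature, a detection score, as named per the file headers. For WT untreated the intensities equal the authors' deposited normalized values for that array. The authors' values had a median of 75 on all 4 arrays, by an unstated method. Whether the WT untreated intensities had been normalized before deposit cannot be told from this equality. Median intensities were 75.0 for WT without and 94.5 with IFNa, and 96.7 for STAT3KO without and 77.4 with IFNa. Arrays detected between 16076 and 17524 features.

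Intensities were background-corrected (limma 3.58.1 in R 4.3.3, normexp with detection p, offset 16), quantile-normalized over the 4 arrays and taken to log2. Symbols were updated through the RefSeq table of GRCm38.p6. The feature with the highest mean over the 4 arrays stood for a gene. A gene was bright at a mean log2 level of at least 8 over the 2 IFNa arrays if both detected it. The spread by level used the mean over the 4 arrays. Lower bounds set the bright value against the higher of the dim array's lowest detected level and the feature's own. The calculation was tested on simulated data with known differences in a small set of bright features. Differences of dim features, the bounds and changes as widespread as in these data were not simulated. Genes named are Stat3, the 12 largest differences each way among genes detected on both IFNa arrays, the 10 brightest detected on 1 array each way, up to 5 members of each list and those needed to describe it, and genes past 2-fold in opposite directions with and without IFNa. Of 1375 entries in 43 gene lists, 1252 matched a gene on the array. The members and lists were chosen with earlier results of these data known. Alternatives in background correction, scaling, offset, detection filter, choice of feature and threshold are given in the closing section.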

Additional observations from a re-analysis of the deposited data

Results flagged for a closer look

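Ifit2 differed in opposite directions by treatment: STAT3KO minus WT was 1.36 with IFNa and -1.07 without it (log2), on 1 array per group. It stood out as the 1 gene detected on all 4 arrays that was past 2-fold one way with IFNa and past 2-fold the other way without it. The difference between these differences was not tested, and the gene has 1 detected feature. Its log2 responses to IFNa were 0.58 in WT and 3.02 in STAT3KO.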

How the results depend on the processing

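The counts of genes at least 2-fold higher and lower in STAT3KO IFNa, 1030 and 1078, were 663 and 714 without background correction, 518 and 568 with the authors' normalized values, and 481 and 416 among bright genes. Among genes detected on both arrays 644 were lower. A 4-fold threshold gave 279 and 407, and a 1.5-fold threshold 2265 and 1969. Scaling to the 75th percentile moved the median of all genes from 0.07 to -0.12 and the higher share of calls from 48.9% to 41.0%. It set the median of chromosome 6 at 0.51. The interferon lists had medians of 0.83 without background correction and 0.71 with the authors' values. The detected GTPases ranged from 2.35 without background correction to 3.23, or 0.96 with no detection filter. STAT3 targets were at -1.19 with 75th percentile scaling, -1.27 among bright genes, -0.49 with no detection filter and -0.66 at a detection score above 0.95. Matrix glycoproteins were at -0.98 without background correction, -1.06 with offset 50, -0.71 with the authors' values, -1.97 among bright genes, -0.85 with no filter and -1.67 with chromosome medians subtracted. Fibroblast markers were at -0.87, -1.01 and -0.68 under the first 3 of these, -1.79 with features averaged, -0.84 if detected on both arrays and -0.69 with no filter. Hox genes were at -1.60, -1.93 and -1.16 under those 3, -0.64 if detected on both arrays and -0.19 with no filter. Among bright genes the Hox median reversed to 2.73, but it rested on 3 genes, 2 higher and 1 lower. That filter leaves out every gene undetected in STAT3KO IFNa or in WT IFNa. Neural markers reversed to 0.075 with no filter, and of the 3 detected on both arrays 2 were lower and 0 higher. Of 442 genes in the lists and rankings past 2-fold, 0 changed direction under any normalization tried, and 311 stayed past 2-fold with the authors' values. These genes were chosen for being past 2-fold on the same 2 arrays, so a change of direction was unlikely from the start. Folds and bounds depended on the processing too. With the authors' values Thy1 differed by -7.36 and Gbp2b by 5.24, against -9.67 and 7.63 in the main processing. Scx differed by 4.25 against 6.25, and Mlkl by 2.34 against 4.18. No paired analysis was possible because each group has 1 array. Genotype and line cannot be told apart, and dim genes carry the widest error.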

Other observations

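Features with no gene symbol behaved much like named ones: of 4424, 355 (8.02%) were at least 2-fold higher and 426 (9.63%) lower in STAT3KO IFNa. Of the lists not described above, skeletal and cardiac muscle genes were 2 higher and 1 lower of 6 detected, with Tnni1, a slow troponin gene, higher (3.17 on the log2 scale, undetected in WT IFNa). Neural and glial markers were 1 higher and 5 lower of 8, with Gap43 and Uchl1 undetected in STAT3KO IFNa, and pluripotency and germline genes were 1 higher, Nanog (1.78), and 1 lower, Klf5 (-1.20), of 6. Of 22 sterol and fatty acid genes 5 were higher, including Elovl6 (1.83; second feature 0.81), and 1, Lpl (-3.31), was lower. Of 31 hypoxia and glycolysis genes 6 were higher, with Aldoc at 4.06 and Car12 at 3.05, and 6 lower, with Vegfa at -2.91. Of 27 stress and unfolded protein genes 1 was higher and 4 lower, and of 19 CDK inhibitor and p53 genes 3 were higher, with Cdkn2c at 3.12 (other features down to 1.81), and 4 lower. Smooth muscle and contractile genes were 1 higher and 5 lower of 17, with Tagln at -4.81. Retinoid genes were 1 higher, Tgm2, and 3 lower of 6. Of 18 complement and acute-phase genes 4 were higher, including Clu (3.14), and 9 lower, including F3 (-3.59). Among the 9 of them detected on both arrays 1 was higher and 4 lower. Tendon, cartilage, bone and fat genes were 1 higher and 9 lower of 19, and apoptosis genes 5 higher and 5 lower of 27.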
